A study of Mus musculus with 3 samples.

Results

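The EGF family genes described here are 7 ligand genes (Areg, Hbegf, Ereg, Tgfa, Btc, Epgn and Nrg1) and 3 receptor genes (Egfr, Erbb2 and Erbb3). They were found by symbol among the 32285 genes of the deposited single-cell matrices, and all 10 had a row. The cells came from the dorsal skin of C57Bl/6 male mice, 8 weeks old and in telogen, the resting phase of the hair cycle, and were enriched for the pan-leukocyte antigen CD45 with magnetic beads after collagenase digestion. WTctrl was a wild-type (WT) library without UVB, WTUV a WT library after 3 exposures to UVB, and RPUV a library of genotype RP after 3 exposures. RP mice carry Rosa26-rtTA and Tre-Ptgs2, so that rat Ptgs2, which encodes the prostaglandin-forming enzyme Cox-2, is expressed in all tissues under doxycycline. Each group was 1 library, so no difference between groups has a replicate check, and no p-value is given. RPUV differed from WTctrl in UVB and in genotype together.

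The EGF family ligands are made as membrane-bound precursors and released by proteases of the ADAM family, after which they act on the same or on neighbouring cells. Amphiregulin (Areg), HB-EGF (Hbegf), epiregulin (Ereg), TGF-alpha (Tgfa), betacellulin (Btc) and epigen (Epgn) bind the EGF receptor (Egfr), and neuregulin 1 (Nrg1) binds ErbB3 (Erbb3), which signals as a pair with ErbB2 (Erbb2), a receptor with no known ligand of its own. In skin the family is known for keratinocyte growth and wound closure, and amphiregulin is also a product of innate lymphoid cells and of some T cells.

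Epgn, Ereg, Areg and Btc lie side by side on mouse chromosome 5, between positions 91027517 and 91402994 of GRCm38.p6 (RefSeq), a stretch of 375478 bases that holds 7 annotated genes, 4 of them protein-coding. Nrg1 spans 1084158 bases of chromosome 8 (31807452 to 32891609). Tgfa is on chromosome 6 (86195038 to 86275744), and Egfr and Erbb2 on chromosome 11 (16752203 to 16913907 and 98412484 to 98437716) and Erbb3 on chromosome 10 (128567523 to 128589635). RefSeq promoter sequences of GRCm38.p6 were matched for 6 of the 10 members, namely Areg, Tgfa, Btc, Epgn, Egfr and Erbb2. The 250 bases before the start of Areg and of Epgn are shown because these neighbouring ligands had the highest RPUV over WTUV ratios among members with at least 20 UMIs in basal and in suprabasal keratinocyte-like cells, respectively. Cyclic AMP is a known messenger of some receptors for prostaglandins, the products of Cox-2. Capitals mark matches to the cyclic AMP response element TGACGTCA, its part TGACG on either strand and the TATA box TATAAA.
Areg promoter, chr5:91139349-91139598, plus strand: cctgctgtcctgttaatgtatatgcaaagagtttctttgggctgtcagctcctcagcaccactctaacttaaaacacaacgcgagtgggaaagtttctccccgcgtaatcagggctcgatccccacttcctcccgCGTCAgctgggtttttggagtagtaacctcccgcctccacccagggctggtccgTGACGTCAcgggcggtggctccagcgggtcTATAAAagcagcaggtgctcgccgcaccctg
Epgn promoter, chr5:91027267-91027516, plus strand: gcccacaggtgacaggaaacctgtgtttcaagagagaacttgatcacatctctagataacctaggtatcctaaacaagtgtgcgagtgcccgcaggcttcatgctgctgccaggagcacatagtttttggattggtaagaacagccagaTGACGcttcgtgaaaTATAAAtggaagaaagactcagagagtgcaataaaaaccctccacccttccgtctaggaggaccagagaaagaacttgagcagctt

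The Areg promoter held TGACGTCA from 61 bases before the start and TATAAA from 31 bases before it, and another CGTCA from 115 bases before it. The Epgn promoter held TGACG from 101 and TATAAA from 86 bases before the start. TGACG was also found on the reverse strand in the promoters of Btc (113 bases before the start) and Erbb2 (171 bases), and none of the motifs searched in those of Tgfa and Egfr. On both strands, TGACGTCA was in 508 of 32841 promoters of the same length (1.55%), TGACG in 5836 (17.8%) and TATAAA in 4062 (12.4%). Every TGACGTCA also holds TGACG. The AP-1 site TGANTCA, in 2217 of all promoters (6.75%), was in none of the 6. A match is a description of the letters, and binding was not measured.

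After filtering, 5309 WTctrl, 5225 WTUV and 6070 RPUV cells remained, with median UMI counts (unique molecules counted per cell) of 4246, 10557 and 3774. The raw sample names in the labels carry 1 flow cell code and date for WTctrl and RPUV and another for WTUV, so for comparisons with WTUV the run and the group cannot be told apart. Library pairs shared 7 to 9 cell barcodes. Ptgs2 was counted at 14.4, 117 and 486 UMIs per 1000000 over all cells and at 3.17, 6.04 and 667 in keratinocyte-like cells of WTctrl, WTUV and RPUV, highest in the library labelled as overexpressing it. Whether reads of the rat transgene are counted on the mouse gene was not tested. Cells were grouped in 162 clusters, of which 106 were named from marker genes. The keratinocyte-like class (basal, suprabasal and hair follicle together; 1101, 493 and 960 cells) had UMIs for 23 of its 23 markers in each library, and the macrophage-like class (1689, 2215 and 2247 cells) for 12 of 12. The fibroblast-like class is thin in WTUV (26 cells), where its markers summed to 2992 CPM against 117770 and 27315, and no WTUV value of that class is described. Levels are given as CPM, the UMIs of a gene per 1000000 UMIs of the class in that library, with exact Poisson 95% intervals in parentheses; intervals cover counting error only, not the uneven spread of UMIs over cells nor differences between mice.

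Keratinocyte-like cells held most of the Epgn, Ereg, Tgfa and Erbb2 UMIs of each library, while the UMIs of Areg, Hbegf, Nrg1 and Egfr were divided between epithelial and immune classes. Of all Epgn UMIs, 74.4% in WTctrl, 84.8% in WTUV and 95% in RPUV were in keratinocyte-like cells. For Erbb2 these shares were 75.7%, 79.4% and 67.9%, and for Ereg 88.2%, 76.7% and 67.9%. Nrg1 differed most between the libraries in this respect. Its 11 UMIs in WTctrl were 81.8% keratinocyte-like, whereas macrophage-like cells held 62.2% of 1404 UMIs in WTUV and 61.2% of 312 in RPUV.

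**Figure D1:**
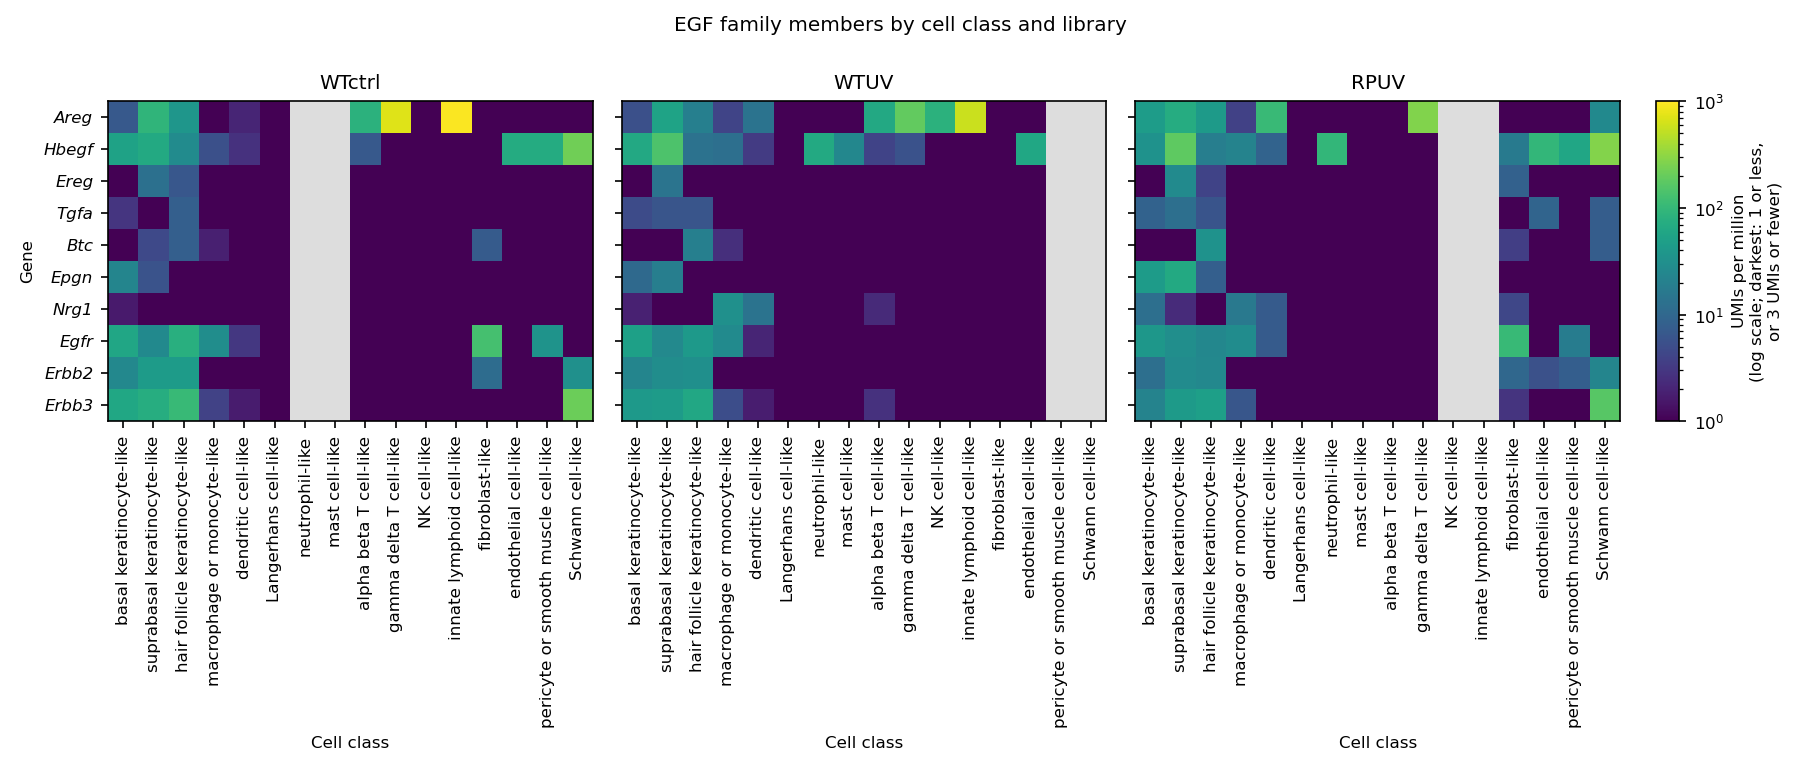
CPM (log colour scale) of the 10 members, in rows, by named cell class, in columns, with 1 panel per library. The darkest squares are at or under 1 CPM or 3 UMIs, and grey marks classes with under 20 cells or 50000 UMIs. Areg is brightest in the innate lymphoid and gamma delta T cell-like columns of WTctrl (968 and 722 CPM), Egfr in fibroblast-like and Erbb3 in Schwann-like cells where these are shown outside WTUV, and Nrg1 is dark in the macrophage-like column of WTctrl only.

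Summed over all cells, WTUV was more than 2-fold over WTctrl for 1 of the 10 members (5.57% of all genes) and more than 2-fold under it for 3 (15.5%), so 4 were past 2-fold either way against 21.1% of all genes. A ratio was counted only with at least 20 UMIs over both libraries. Nrg1 was the higher one (0.426, 21.7 and 10.7 CPM in WTctrl, WTUV and RPUV). In RPUV over WTUV, 5 members were higher (16.7% of all genes) and 1 lower (9.35%), against 26% of all genes either way. In RPUV over WTctrl 3 were higher, Ereg, Tgfa and Nrg1 (7.92% of all genes), and none lower (8.39%), against 16.3% either way. The Ereg ratio reversed when all deposited barcodes were used, and 29 of its RPUV UMIs were in 1 keratinocyte-like cell. Areg stayed within 2-fold over all cells, at 18.8 (17.1 to 20.5), 25.2 (24 to 26.5) and 22.1 (20.4 to 23.8) CPM, with the WTUV interval above both others. In such sums, fewer cells of a type and less RNA per cell cannot be told apart, and the classes differ in size between libraries, so the members are described by class below.

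Areg, which encodes a low-affinity EGF receptor ligand, was within 2-fold over all cells of the 3 libraries but did not have the same cells behind its level. Of the Areg UMIs of WTctrl, 42.8% were in T cell-like, 28.9% in keratinocyte-like and 15.3% in innate lymphoid-like cells. In WTUV, T cell-like and innate lymphoid-like cells held 27.4% and 27.8%, and keratinocyte-like cells 7.37%. In RPUV, keratinocyte-like cells held 54.7%, dendritic-like cells 18.2% and T cell-like cells 2.8%. The RPUV library had few lymphoid cells, with 77 T cell-like cells and 1 innate lymphoid-like cell.

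The level of Areg in CPM was highest in innate lymphoid-like cells, at 968 (760 to 1215) in the 24 cells of WTctrl and 575 (523 to 630) in the 103 cells of WTUV, a WTctrl level 1.68-fold higher (1.3 to 2.16). Of these cells, 58.3% (38.8 to 75.5, Wilson 95% interval) and 52.4% (42.9 to 61.8) had an Areg UMI, against 0 of 89, 1 of 26 and 1 of 330 endothelial-like cells in WTctrl, WTUV and RPUV, a class not known for the gene. Median UMI counts were 3098 and 7107 in the lymphoid cells and 2445, 5237 and 2665 in the endothelial ones. With each cell thinned to 2000 UMIs the lymphoid shares were 47.8% and 30.4%, and their intervals overlap. In WTctrl 5 of the 24 cells held 53 of the 74 UMIs. Without the 5 highest cells of each library the levels were 348 and 375 CPM. Those cells held 71.6% of the UMIs in WTctrl and 38.1% in WTUV, so this comparison is uneven and does not settle the direction.

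In gamma delta T cell-like cells Areg was at 722 (609 to 849) CPM in WTctrl, 190 (169 to 213) in WTUV and 273 (162 to 431) in RPUV. The WTctrl level stood above both UVB libraries, 3.79-fold (3.09 to 4.64) over WTUV and 2.64-fold (1.62 to 4.59) over RPUV, the latter on 18 UMIs in 6 of 37 cells. Without the 5 highest cells of each library the levels were 281, 73.1 and 18, again highest in WTctrl, but in RPUV those cells held 17 of the 18 UMIs. The summed level of the 7 gamma delta T cell markers in the class was also higher in WTctrl (19872 CPM) than in WTUV (10737) and RPUV (10690), and its part in the Areg difference was not tested. Alpha beta T cell-like cells had 83.9 and 63.8 CPM in WTctrl and WTUV and 0 UMIs in the 40 cells of RPUV, which allows up to 26.3 CPM. Cells named NK-like had 84.7 in WTUV.

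**Figure D2:**
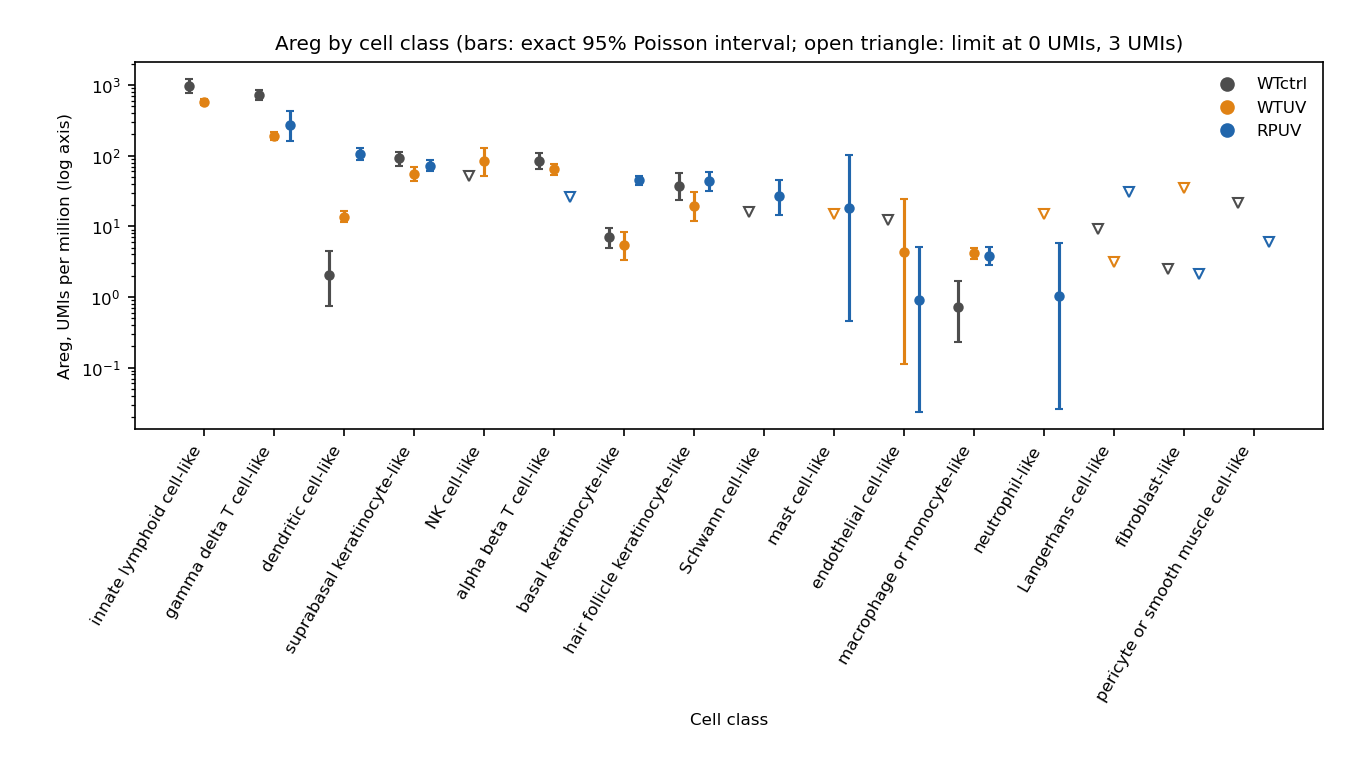
Areg in CPM (log axis) by cell class, with 1 point per library, exact Poisson 95% intervals as bars and open triangles at the 3-UMI limit where a class held no Areg UMI. Innate lymphoid-like and gamma delta T cell-like points are the highest in WTctrl and WTUV, and the RPUV points of basal keratinocyte-like (45.2) and dendritic-like cells (107) lie above those of the other libraries.

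Within a library, innate lymphoid-like cells stood above gamma delta T cell-like cells in WTctrl by a ratio of 1.34 whose interval touches 1 (1 to 1.79), and in WTUV by a wider margin (575 against 190). In WTctrl, suprabasal keratinocyte-like cells (91.7) and alpha beta T cell-like cells (83.9) followed and did not differ beyond counting error, then came hair follicle keratinocyte-like (37.7), basal keratinocyte-like (6.96) and dendritic-like cells (2.03). In RPUV the order was gamma delta T cell-like, dendritic-like (107), suprabasal (72.5), basal (45.2) and hair follicle keratinocyte-like cells (43.7), the last pair of which did not differ beyond counting error. These orders rest in part on few cells. In RPUV, 2 cells held 14 of the 18 gamma delta T cell-like UMIs, and without the 5 highest cells of each class suprabasal cells came first (44.1), then hair follicle (22.3), basal (18.6), gamma delta T cell-like (18) and dendritic-like cells (8.56). In WTctrl the levels of suprabasal and alpha beta T cell-like cells were then 52.2 and 16.8. Taking out 5 cells weighs more on a small class, such as the 37 gamma delta T cell-like cells of RPUV against its 589 basal cells, so the order without them is not settled either.

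In keratinocyte-like cells Areg was at 20.2 (17 to 23.8) CPM in WTctrl, 19.6 (16.3 to 23.4) in WTUV and 51.8 (46.5 to 57.5) in RPUV. RPUV stood apart from the other libraries, which were alike, with ratios of 2.64 (2.14 to 3.28) over WTUV and 2.56 (2.1 to 3.14) over WTctrl. The ratios were highest in basal keratinocyte-like cells, the dividing layer of the epidermis, with 6.96, 5.4 and 45.2 CPM. There the RPUV ratio was 8.37 (5.27 to 14) over WTUV and 6.49 (4.56 to 9.46) over WTctrl. In the suprabasal class, the differentiating layers above, the levels were 91.7, 55.7 and 72.5, and RPUV was not the highest. Hair follicle levels were 37.7, 19.7 and 43.7, with RPUV 2.21-fold (1.26 to 4.02) over WTUV and 1.16-fold (0.684 to 2.02) over WTctrl.

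The basal Areg UMIs of RPUV were concentrated in few cells. The 186 UMIs were in 34 of 589 cells, and the 5 highest cells held 111 of them (59.7%). Without the 5 highest cells of each library the basal levels were 2.4, 0.85 and 18.6 CPM, so RPUV was still the highest. By cluster, 96 of the 186 UMIs were in a cluster led by Krt14, Krt5 and Krt6a and 77 in one led by Krt14, Krt5 and Krt15. These clusters held 75 RPUV cells each, against 7 and 15 of WTUV and 1 and 7 of WTctrl. The largest basal cluster of WTctrl (269 cells) and of WTUV (46 cells) was another, led by Krt15 and Ly6d, with 36 RPUV cells. Its leading genes also held Krt1, Krt10 and Krtdap, which were among the leading genes of a suprabasal cluster too. The part of these clusters in the basal differences of Areg and of other members was not tested.

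The size of the Areg difference in keratinocyte-like cells depended on how cells were named. With each library clustered alone, the log2 ratio of RPUV over WTUV was 0.12 in place of 1.40 and that of RPUV over WTctrl 0.52 in place of 1.36. In that setting an RPUV cluster of 106 cells led by Krt6a and Krt16 was left unnamed because it was deep and also carried neutrophil markers. In the keratinocyte-like class as used here, the 7 neutrophil markers summed to 2.6, 26.6 and 216 CPM and the 12 macrophage markers to 139, 206 and 399 in WTctrl, WTUV and RPUV, the same order as Areg for RPUV against the others. Neutrophil-like cells themselves held 0 Areg UMIs in the 60 cells of WTUV and 1 in the 583 cells of RPUV. The part of neutrophil and macrophage RNA in the Areg difference was not tested.

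Areg was also higher in myeloid classes after UVB. In dendritic-like cells its level was 2.03 (0.745 to 4.42), 13.7 (11.5 to 16.3) and 107 (88.2 to 128) CPM, with intervals that do not overlap. The ratio of WTUV over WTctrl was 6.77 (3.03 to 18.8) and that of RPUV over WTUV 7.76 (5.99 to 10.1). The RPUV value rests on few cells: 11 of 187 had a UMI, and 2 cells held 93 of the 117 UMIs (79.5%). Of the 117 UMIs 106 were in a cluster led by Mmp12, Il1b and Ear2, which held 94 cells of RPUV, 262 of WTUV and 5 of WTctrl. Without the 5 highest cells of each library WTUV was at 2.93, RPUV at 8.56 and WTctrl at 0. In macrophage-like cells the levels were 0.717 (0.233 to 1.67), 4.15 (3.42 to 4.99) and 3.85 (2.81 to 5.15), with ratios of 5.78 (2.41 to 18.2) for WTUV and 5.37 (2.14 to 17.3) for RPUV over WTctrl. In WTUV 26 of 2215 cells had an Areg UMI and 5 of them held 74 of the 113 UMIs, and without the 5 highest cells of each library the levels were 0, 1.43 and 2.32. Free RNA from keratinocytes, scaled by Krt14 in macrophage-like cells, would give 0.106, 0.0507 and 0.305 Areg CPM there. RNA from T cell-like and innate lymphoid-like cells was not estimated, and the part of RNA from other cells in these differences was not tested.

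Hbegf, which lies on chromosome 18 and encodes a heparin-binding ligand of the EGF receptor, was highest in Schwann-like cells, the glia of skin nerves, in both libraries with enough of them. They had 225 (162 to 304) CPM in WTctrl and 276 (233 to 325) in RPUV, a ratio of 1.23 (0.865 to 1.78), and 33.7% and 32.2% of these cells had a UMI. The 9 Schwann-like cells of WTUV were too few for a level. Endothelial-like cells had 70.3, 61.3 and 97.6, with overlapping intervals, and neutrophil-like cells 65.6 (35 to 112) in WTUV and 98.2 (79.3 to 120) in RPUV.

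In keratinocyte-like cells Hbegf was at 52.8, 75.8 and 68.4 CPM in WTctrl, WTUV and RPUV, with no ratio past 2-fold. The layers went different ways. Suprabasal levels were 66.1 (50.1 to 85.7), 146 (127 to 167) and 180 (161 to 202), so both UVB libraries lay above WTctrl, by 2.2-fold (1.64 to 3.01) and 2.73-fold (2.05 to 3.69). Basal levels were 53.5 (47.5 to 60), 64.5 (56.6 to 73.2) and 34 (28.6 to 40.1), with RPUV 1.9-fold (1.53 to 2.35) under WTUV. The 5 highest suprabasal cells held 32 of 57, 128 of 212 and 161 of 306 UMIs in the 3 libraries, and without them the levels were 32.4, 71.8 and 89.7.

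Macrophage-like cells had 5.45 (3.86 to 7.48), 12.4 (11.1 to 13.8) and 21.7 (19.1 to 24.6) Hbegf CPM. The intervals do not overlap, and the ratios were 2.27 (1.62 to 3.26) for WTUV over WTctrl, 1.76 (1.49 to 2.07) for RPUV over WTUV and 3.99 (2.83 to 5.76) for RPUV over WTctrl. The UMIs were spread over many cells: 174 of 2215 cells in WTUV and 186 of 2247 in RPUV had one. Of cells thinned to 2000 UMIs, 1.03% (0.633 to 1.66), 2.23% (1.69 to 2.95) and 4.22% (3.42 to 5.19) had a Hbegf UMI, against 2.08%, 2.33% and 2.6% of unthinned T cell-like cells (1.74%, 0.737% and 5.88% when thinned, on 4, 4 and 2 cells). The thinned share of macrophage-like cells is therefore not above that of T cells in WTctrl or in RPUV, the latter on 2 T cells. T cell-like cells had 8.61, 4.71 and 27.7 Hbegf CPM in WTctrl, WTUV and RPUV, on 8, 18 and 5 UMIs. There RPUV was 5.89-fold (1.71 to 16.5) over WTUV, so a higher RPUV level was not limited to macrophage-like cells.

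Epgn, which encodes the short EGF receptor ligand epigen, was found mainly in keratinocyte-like cells and had no UMI in the 337, 558 and 77 T cell-like cells of the 3 libraries. Its level in keratinocyte-like cells was 19.3 (16.2 to 22.9), 10.9 (8.48 to 13.9) and 44.6 (39.7 to 49.9) CPM. WTUV was the lowest and RPUV the highest, with ratios of 4.07 (3.12 to 5.39) for RPUV over WTUV and 2.31 (1.88 to 2.85) for RPUV over WTctrl. The RPUV over WTctrl ratio depended on which clusters were named. An unnamed cluster led by Krt15, Krt5 and Krt14 held 39 further WTctrl UMIs in 68 cells, at 82.5 CPM (58.7 to 113), and it was left unnamed because it was deep and also carried fibroblast markers. With every cluster named by its best panel the log2 ratio of RPUV over WTctrl was 0.97 in place of 1.21, under 2-fold, as it also was with thinned cells (0.90) and with a mean over cells (0.95). In WTUV, 5 cells held 41 of the 67 UMIs. Without the 5 highest cells of each library the keratinocyte-like levels were 16.3, 4.38 and 34.6.

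The layers of the epidermis differed in where Epgn was found. In WTctrl, 128 of the 134 keratinocyte-like UMIs were basal, at 23.5 (19.6 to 27.9) CPM against 5.8 (1.88 to 13.5) in suprabasal cells. In RPUV the suprabasal level was 66.6 (54.9 to 80.1), above the basal level of 44.2 (38 to 51.1). WTUV had the same order, with 19.3 in suprabasal and 10.5 in basal cells, a ratio of 1.83 (1.08 to 3.05). There 5 cells held 27 of the 28 suprabasal UMIs. The suprabasal ratio was 11.5 (4.78 to 36) for RPUV over WTctrl and 3.46 (2.27 to 5.44) for RPUV over WTUV. Of the 113 suprabasal UMIs of RPUV, 90 were in a cluster of 111 RPUV cells led by Krt16, Krt14 and Cstdc5, which had 33 cells in WTUV. Krt14 also led basal clusters, so the split of Epgn between these layers rests in part on how this cluster was named. With each library clustered alone the log2 ratio of Epgn for RPUV over WTctrl was 0.27 in place of 1.21, and that of RPUV over WTUV 1.46 in place of 2.03.

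Ereg, Tgfa and Btc, ligands of the same receptor, were low, with 13 to 63 UMIs in the keratinocyte-like cells of a library, and for each of them RPUV was the highest and WTctrl the lowest. Ereg was at 2.16 (1.21 to 3.57), 3.76 (2.38 to 5.64) and 7.8 (5.84 to 10.2) CPM, 46 of its 53 UMIs in RPUV being suprabasal. Few cells held these UMIs, with 29 of the 53 in 1 RPUV cell and 41 in 5. Without the 5 highest cells of each library the Ereg levels were 0.29, 1.01 and 1.78, on too few UMIs for a ratio. Tgfa was at 3.32 (2.1 to 4.98), 5.39 (3.71 to 7.57) and 9.27 (7.12 to 11.9). Btc was at 1.88 (0.999 to 3.21), 3.59 (2.25 to 5.44) and 5.59 (3.96 to 7.67). The RPUV over WTctrl ratios were 3.6 (2 to 6.88) for Ereg, 2.79 (1.71 to 4.72) for Tgfa and 2.98 (1.55 to 6.1) for Btc, and for all 3 the interval of WTUV over WTctrl included 1.

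In the UVB libraries most keratinocyte-like Btc UMIs were in hair follicle cells. The hair follicle class held 5 of 13, 19 of 22 and 33 of 38 of their UMIs, at 8.19 (2.66 to 19.1), 19.7 (11.9 to 30.8) and 33.5 (23.1 to 47.1) CPM. The hair follicle cells of the libraries lay in different clusters. A cluster led by Defb6, Cst6 and Krt79 held 72 of 110 hair follicle cells in WTctrl, 36 of 79 in WTUV and 20 of 156 in RPUV, and there Btc was at 10.9 (3.53 to 25.3), 17.5 (9.02 to 30.5) and 7.06 (0.179 to 39.3). Of the 33 RPUV UMIs, 23 were in another cluster, led by Cst6, Krt17 and Defb6, with 27 RPUV cells against 15 of WTctrl and 7 of WTUV. In macrophage-like cells RPUV had the lowest Btc level, at 1.86 (0.993 to 3.19), 2.57 (2 to 3.25) and 0.684 (0.295 to 1.35), the RPUV level resting on 8 UMIs and 3.75-fold (1.8 to 9.04) under WTUV. Ereg had 12 UMIs in fibroblast-like cells of RPUV (8.59 CPM, 4.44 to 15) and 0 in those of WTctrl, which allows up to 2.45.

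**Figure D3:**
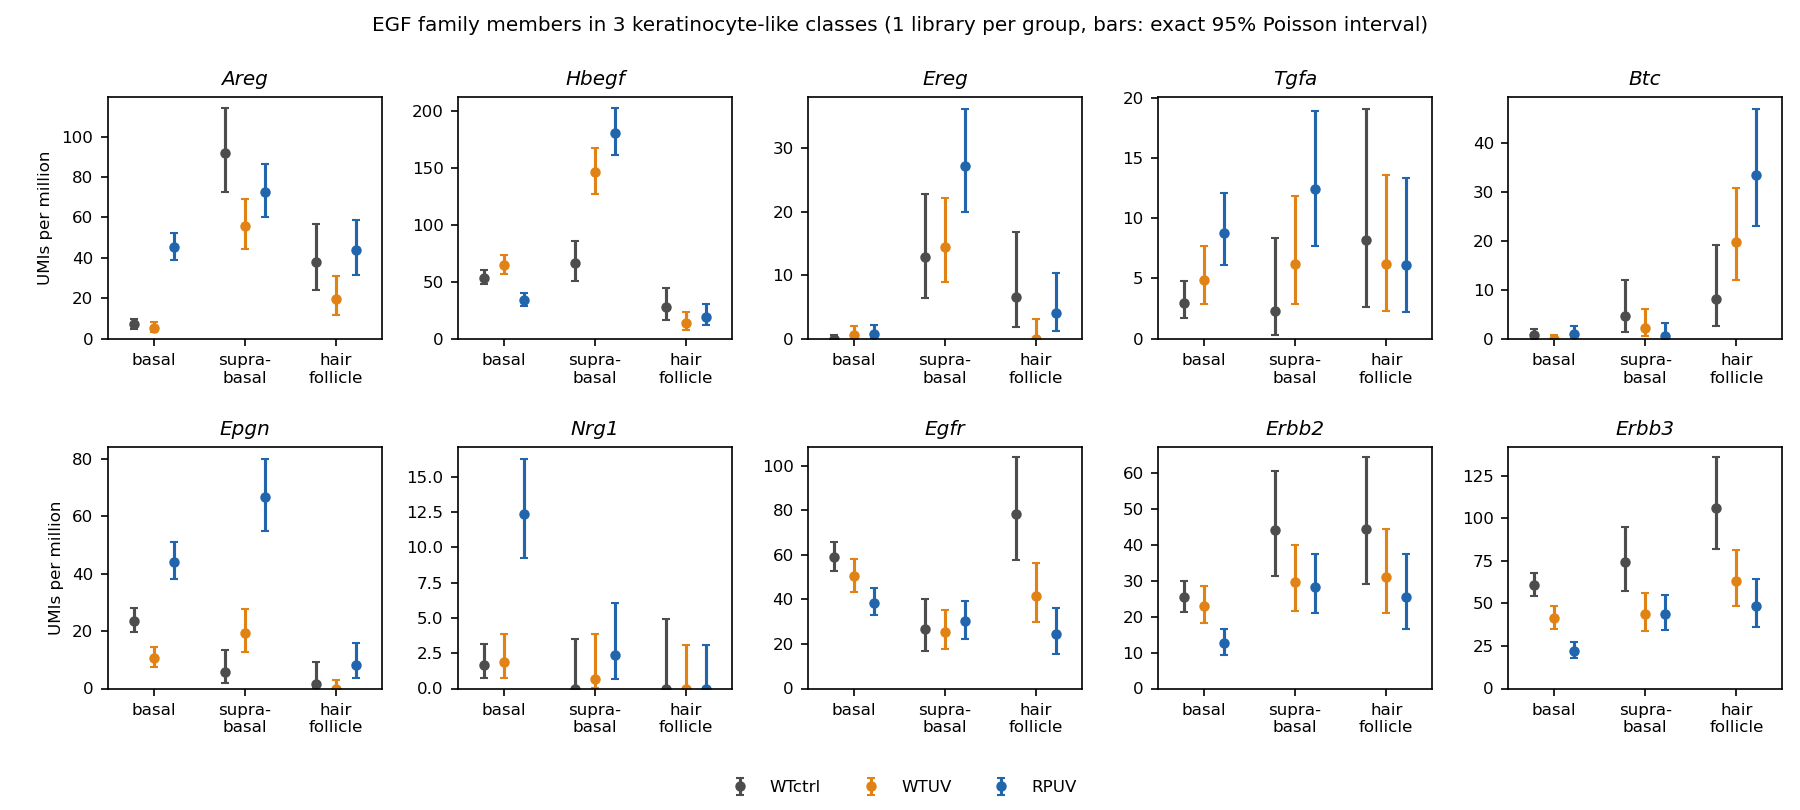
CPM of the 10 members, 1 panel each on its own linear axis from 0, in basal, suprabasal and hair follicle keratinocyte-like cells, with 1 point per library and exact Poisson 95% intervals as bars. Areg is higher in the basal cells of RPUV (45.2) and Epgn in both its basal and suprabasal cells (44.2 and 66.6), Btc lies mainly in hair follicle cells, and Erbb3 is highest in WTctrl in each of the 3 classes.

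Nrg1, the ligand of ErbB3, showed the sharpest contrast in macrophage-like cells. No Nrg1 UMI was found in the 1689 macrophage-like cells of WTctrl, which allows up to 0.43 CPM. The level was 32 (29.9 to 34.2) in WTUV, from 873 UMIs, and 16.3 (14.1 to 18.8) in RPUV, from 191. WTUV was thus at least 74.5-fold and RPUV at least 38-fold higher than WTctrl, taking 3 UMIs as the WTctrl limit, and RPUV was 1.96-fold (1.68 to 2.31) under WTUV. The UMIs were spread over 260 of 2215 cells (11.7%) and 115 of 2247 cells (5.12%), with 11.2% and 12.6% of them in the 5 highest cells. Thinned to 2000 UMIs, 0 of 1559 cells (up to 0.192%), 4.7% (3.88 to 5.68) and 2.73% (2.1 to 3.54) had a UMI, against 0 of 230, 0 of 543 and 2 of 34 thinned T cell-like cells.

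The ratio of at least 38-fold is between the libraries with the same flow cell code, RPUV and WTctrl. Krt14 in macrophage-like cells was at 0.524%, 0.259% and 0.588% of its keratinocyte-like level in WTctrl, WTUV and RPUV, and the part of RNA from other cells in the Nrg1 difference was not tested. In WTUV, 577 of the 873 UMIs were in a cluster led by Il1b, Thbs1 and Cxcl2, genes of inflammatory monocytes, at 213 CPM. Nrg1 was itself among the 10 leading genes of that cluster, which held 220 cells of WTUV, 20 of RPUV and 1 of WTctrl. In RPUV the UMIs were spread over a cluster led by Chil3, Pf4 and Ms4a7 (69 UMIs), one led by Chil3, Cxcl2 and Thbs1 (56) and one led by Ccl8, Cd209f and Pf4 (30). The largest macrophage-like cluster of WTctrl (699 cells) was led by Ccl8, F13a1 and Hal. The libraries thus differed in which macrophage-like clusters they held, and what part of the Nrg1 difference lay within clusters was not tested.

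**Figure D4:**
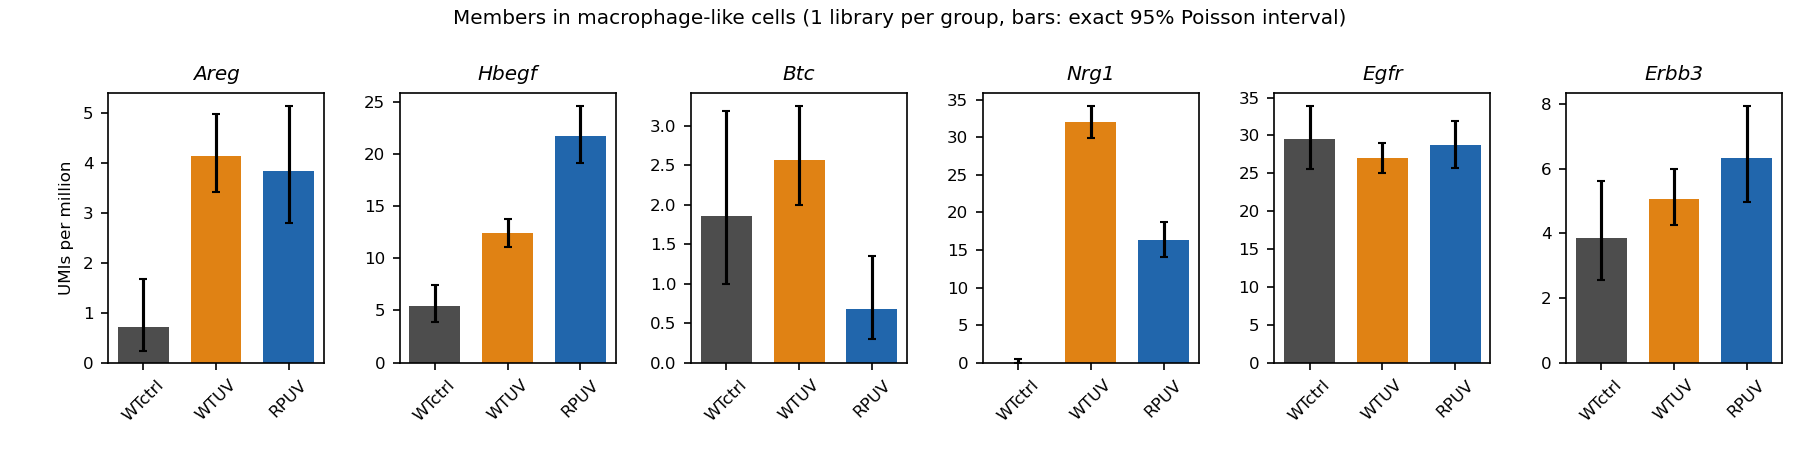
CPM in macrophage-like cells for Areg, Hbegf, Btc, Nrg1, Egfr and Erbb3, 1 panel each on its own linear axis from 0, with a coloured bar per library and exact Poisson 95% intervals as error bars. Nrg1 is at 0 in WTctrl, 32 in WTUV and 16.3 in RPUV, Hbegf is at 5.45, 12.4 and 21.7, and the Egfr intervals overlap, with levels between 27 and 29.5.

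Nrg1 was also found outside macrophages. In dendritic-like cells 1 UMI was counted in WTctrl, 128 in WTUV (13.7 CPM, 11.5 to 16.3) and 8 in RPUV (7.3, 3.15 to 14.4), and the ratio of WTUV over WTctrl was 40.6 with an interval from 7.17 to 1618. In keratinocyte-like cells Nrg1 was at 1.3 (0.594 to 2.47), 1.31 (0.564 to 2.57) and 8.09 (6.1 to 10.5) CPM, so here WTUV did not differ from WTctrl beyond counting error and RPUV was higher than both, by 6.23-fold (3.06 to 14.3) over WTctrl and 6.19-fold (2.93 to 15.1) over WTUV. These UMIs were basal for 51 of 55 in RPUV and spread over 29 cells. Of the 51, 25 and 14 were in the clusters led by Krt14, Krt5 and Krt6a and by Krt14, Krt5 and Krt15 named above for Areg, with 75 RPUV cells each and 1 and 7 of WTctrl, so the basal cells compared lay in different clusters. With each library clustered alone the log2 ratio of RPUV over WTUV was 0.94 in place of 2.63 and that over WTctrl 1.5 in place of 2.64. Macrophage-like and keratinocyte-like cells therefore ordered the libraries differently for this gene, with WTUV highest in the former and RPUV in the latter.

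Of the receptors, Erbb3 alone passed 2-fold in keratinocyte-like cells, in RPUV over WTctrl. Erbb3, whose product binds neuregulins but has little kinase activity of its own, was at 66.7 (60.7 to 73) CPM in WTctrl, 45.4 (40.2 to 51.1) in WTUV and 31.3 (27.3 to 35.8) in RPUV. The intervals do not overlap, and RPUV was 2.13-fold (1.8 to 2.51) under WTctrl. The order was the same in basal cells, at 61, 41.3 and 22.1, where RPUV was 2.76-fold (2.18 to 3.52) under WTctrl. In hair follicle cells the levels were 106, 63.3 and 48.7.

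Egfr was at 56.7 (51.2 to 62.6), 43.1 (38.1 to 48.7) and 34.4 (30.2 to 39.1) CPM in keratinocyte-like cells, also highest in WTctrl and lowest in RPUV, but with no ratio past 2-fold. The hair follicle class had the widest spread, at 78.6 (57.9 to 104), 41.5 (29.7 to 56.5) and 24.4 (15.6 to 36.3), RPUV being 3.22-fold (1.94 to 5.5) under WTctrl, while suprabasal levels were 26.7, 25.5 and 30.1 with overlapping intervals. Erbb2 was at 29.3 (25.4 to 33.6), 25.8 (21.9 to 30.2) and 18.4 (15.3 to 21.9) in keratinocyte-like cells, with overlapping intervals in WTctrl and WTUV, and in basal cells RPUV was 2-fold (1.44 to 2.81) under WTctrl, at the threshold.

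In WTctrl and RPUV, Erbb3 was highest in Schwann-like cells, where neuregulin signalling is known to act in glial development, at 214 (153 to 292) in WTctrl and 167 (134 to 206) in RPUV. Egfr was highest in fibroblast-like cells of WTctrl and RPUV, at 131 (111 to 153) in WTctrl and 106 (89.6 to 124) in RPUV. Macrophage-like cells had Egfr at 29.5 (25.6 to 33.9), 27 (25.1 to 29) and 28.7 (25.7 to 31.9) CPM with overlapping intervals, and Erbb3 at 3.87, 5.06 and 6.33. Erbb2 there was at 0.43, 0.22 and 0.0855. Thinned to 2000 UMIs, 6.09%, 5.21% and 6% of macrophage-like cells had an Egfr UMI, against 0 of 230, 0 of 543 and 0 of 34 T cell-like cells.

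Counted over the members in the setting used here, the keratinocyte-like contrasts involved RPUV. For WTUV over WTctrl, none of the 9 members with at least 20 UMIs was past 2-fold, against 7.4% of all genes, 3.45% higher and 3.95% lower. For RPUV over WTUV, 4 of 10 were higher (Areg, Ereg, Epgn and Nrg1) and none lower, against 11.7% of all genes past 2-fold either way, 6.57% higher and 5.17% lower. For RPUV over WTctrl, 6 of 10 were higher (the same 4 with Tgfa and Btc) and Erbb3 was lower, against 19% of all genes, 8.84% higher and 10.2% lower. The median log2 ratio of the members was -0.04, 0.71 and 1.28 in these comparisons, against -0.14, 0.07 and -0.07 over all genes. The ligands had medians of 0.61, 1.05 and 1.48 and the receptors of -0.39, -0.49 and -0.72. The comparisons share libraries and are not independent of each other, and the members were chosen with earlier results of these data known.

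**Figure D5:**
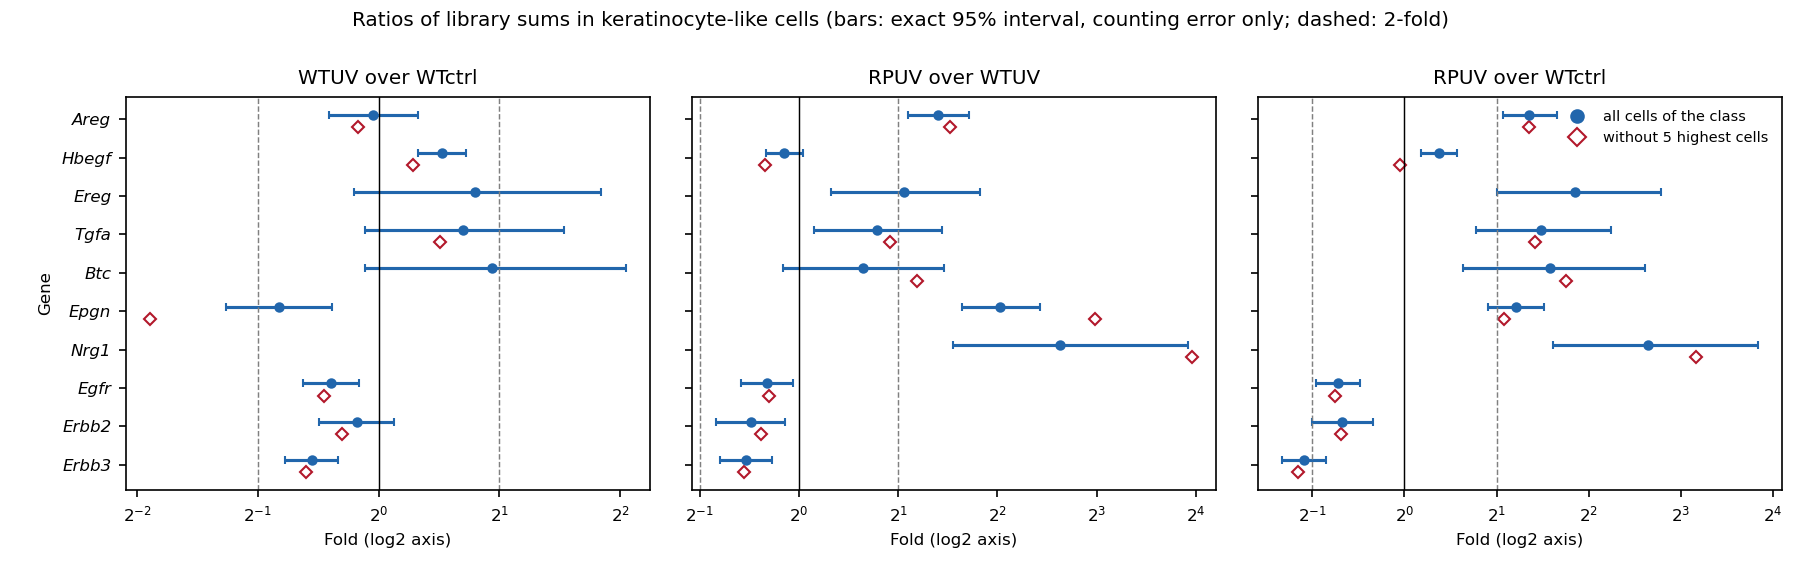
Ratios of summed CPM in keratinocyte-like cells for each member (log2 axis), 1 panel per comparison, as blue points with exact 95% intervals as bars, red diamonds without the 5 highest cells of each library, and dashed lines at 2-fold. The points of Areg, Ereg, Epgn and Nrg1 lie to the right of 2-fold in RPUV over WTUV, as does the diamond of Btc (2.28), and no diamond is drawn for Ereg, which had too few UMIs. In RPUV over WTctrl the points of 6 ligands lie to the right and that of Erbb3 (2.13-fold lower) to the left. In WTUV over WTctrl the only symbol past 2-fold is the diamond of Epgn (3.72-fold lower).

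The count for RPUV over WTUV was 2 with each library clustered alone and 1 with cells thinned to 2000 UMIs. That for RPUV over WTctrl was 4 and 2 in these settings and 3 when cells were weighted equally. For WTUV over WTctrl, where none was counted above, it was 2 and 1 in these settings and 3 with classes from marker UMIs.

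Within the layers the members past 2-fold were not the same ones. In basal cells 1 of 7 members with enough UMIs was past 2-fold for WTUV over WTctrl (6.86% of all genes), Epgn at 2.23-fold lower. For RPUV over WTUV these were 3 of 8 (13.6%), Areg, Epgn and Nrg1, and for RPUV over WTctrl 5 of 8 (21.6%), with Areg, Tgfa and Nrg1 higher and Erbb2 and Erbb3 lower. In suprabasal cells Hbegf and Epgn were higher in WTUV than in WTctrl (2 of 7 members, 13.1% of all genes), Epgn alone in RPUV over WTUV (1 of 8, 14.6%), and Hbegf, Ereg, Tgfa and Epgn in RPUV over WTctrl (4 of 8, 22.1%). The suprabasal Epgn UMIs of WTUV were 28, of which 5 cells held 27. In hair follicle cells 2 of 6 were past 2-fold for WTUV over WTctrl (10.4%), Btc higher and Hbegf lower, 1 for RPUV over WTUV (13.1%), Areg, and 3 for RPUV over WTctrl (18.4%), Btc higher and Egfr and Erbb3 lower. The WTUV over WTctrl calls rest on 19 against 5 Btc UMIs and 13 against 17 Hbegf UMIs. Without the 5 highest cells of each library both had too few UMIs for a call.

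In macrophage-like cells, 6 members had enough UMIs. Areg, Hbegf and Nrg1 were higher in WTUV than in WTctrl and none was lower, against 10.1% of all genes past 2-fold, 6.74% higher and 3.32% lower. For RPUV over WTUV only Btc passed 2-fold, being lower (11.9% of all genes, 7.93% lower and 3.93% higher), with Nrg1 just inside the limit at 1.96-fold lower. For RPUV over WTctrl the same 3 ligands were higher and Btc lower (14.1% of all genes, 6.95% higher and 7.1% lower). The median log2 ratios of the 6 were 0.82, -0.01 and 1.35, against 0.04, -0.07 and 0.01 over all genes. In these cells of WTctrl, WTUV and RPUV, neutrophil markers summed to 131, 113 and 124 CPM, basal keratinocyte markers to 110, 43.7 and 136, fibroblast markers to 155, 68.4 and 54.5, and alpha beta T cell markers to 41.6, 64.7 and 47.3. The alpha beta T cell sums have the same order as Nrg1, with WTUV highest and WTctrl lowest. Alpha beta T cell-like cells themselves held 0, 5 and 2 Nrg1 UMIs in WTctrl, WTUV and RPUV. S100a8, a gene of neutrophils, was at 0.287, 2.83 and 34.7 CPM, the same order as Hbegf. The part of other cells and of their RNA in these differences was not tested.

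Other genes of the pathway were read from 5 lists with 56 genes: further ligands and the receptor gene Erbb4, proteases and their partners that release ligands, feedback inhibitors, signal relay proteins and ERK target genes. The lists were chosen with earlier results of these data known, so their counts are not an independent comparison with all genes. In keratinocyte-like cells 1 was higher and 0 lower of 48 with enough UMIs for WTUV over WTctrl, against 3.45% higher and 3.95% lower of all genes. For RPUV over WTUV 6 and 3 of 49 were past 2-fold (6.57% and 5.17% of all genes), and for RPUV over WTctrl 7 and 6 of 51 (8.84% and 10.2%). In macrophage-like cells the counts were 8 and 1 of 46 for WTUV over WTctrl (6.74% and 3.32% of all genes), 1 and 3 of 48 for RPUV over WTUV (3.93% and 7.93%), and 8 and 2 of 43 for RPUV over WTctrl (6.95% and 7.1%). Erbb4 and Nrg3 had no UMI in either class of any library.

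Among further ligands, Nrg2 in keratinocyte-like cells was at 6.78, 4.9 and 18.2 CPM in WTctrl, WTUV and RPUV, with RPUV 3.72-fold (2.48 to 5.75) over WTUV. In macrophage-like cells Nrg2 was highest in WTctrl, where Nrg1 had no UMI, at 15.8, 5.69 and 3.25, WTctrl being 2.77-fold (2.15 to 3.56) over WTUV. Nrg4 in keratinocyte-like cells was at 1.15, 0.817 and 2.5, with 17 UMIs in RPUV.

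Of the release genes, the sheddases Adam10 and Adam17 were within 2-fold in keratinocyte-like cells, at 45.7, 42.5 and 46.2 and at 36.5, 35.1 and 29.7 CPM. The rhomboid protease gene Rhbdl2 was at 16.9, 8.82 and 4.27, RPUV being 3.96-fold (2.62 to 6.16) under WTctrl. Among feedback inhibitors, Lrig1, which promotes receptor turnover, was at 39.1, 66.3 and 30.2, so RPUV was 2.2-fold (1.85 to 2.61) under WTUV. Of the 19 signal relay genes, none was past 2-fold in keratinocyte-like cells except the adaptor Gab2 (3.32, 1.96 and 1.03), lower in RPUV than in WTctrl.

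The ERK target list holds genes that are induced when this pathway is active, though other pathways act on them too. In keratinocyte-like cells it did not go one way. Etv4 was at 0.721, 9.31 and 20.5 CPM, so that WTUV was 12.9-fold (5.22 to 41.3) and RPUV 28.3-fold (11.9 to 88.7) over WTctrl. Hmga2 had 0, 0 and 20 UMIs, at least 6-fold higher in RPUV than in WTUV, and Phlda1 was at 10.5, 17 and 32.2. Egr1 was at 732, 549 and 198, RPUV being 2.77-fold (2.6 to 2.96) under WTUV. By count, 3 were higher and 1 lower of 11 for RPUV over WTUV, against 6.57% and 5.17% of all genes.

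In macrophage-like cells 5 of the 9 measured ERK targets were higher in WTUV than in WTctrl and none lower, against 6.74% higher and 3.32% lower of all genes. Because the list was chosen with earlier results of these data known, this count is a description only. Plaur, the urokinase receptor gene, was at 13.2, 55 and 29.9 CPM, a ratio of 4.17 (3.38 to 5.2) for WTUV over WTctrl. Ier3 was at 204, 691 and 809, RPUV being 3.97-fold (3.76 to 4.2) over WTctrl. Egr1 was higher in RPUV alone, at 149, 159 and 480, the reverse of its order in keratinocyte-like cells. Etv5 was at 35.3, 35.6 and 17.7, and Hmga2 had 0, 22 and 2 UMIs. Of the feedback phosphatases that act on ERK, Dusp5 was at 3.73, 20 and 13.3, with WTUV 5.36-fold (3.62 to 8.29) over WTctrl, and Dusp4 at 0.43, 1.69 and 0.77. Lrig3 was at 2.44, 1.43 and 0.941.

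Across 45 sums (each class with at least 20 cells and 50000 UMIs in each library), the members whose levels went together most were Erbb2 with Tgfa (Pearson r = 0.81), Erbb2 with Erbb3 (0.78), Tgfa with Erbb3 (0.62) and Ereg with Epgn (0.61), on log2(CPM + 10). Areg was unlike all others, with r from -0.19 to 0.18. The sums share libraries and depth, so these values are a description. Among 12919 other genes, the patterns most like Areg were Ly6g5b (0.798), Actn2 (0.753) and Il2 (0.725), those most like Epgn Sprr2a3 (0.939), Ifi202b (0.905) and H60c (0.899), and those most like Nrg1 Abcc3 (0.695), Ms4a4a (0.677) and Msr1 (0.656). The closest gene was Cd59a for Hbegf (0.698), Wfdc5 for Ereg (0.862), Shroom3 for Tgfa (0.839) and Elf5 for Btc (0.85). For the receptors it was Irx2 for Egfr (0.845), Adgra3 for Erbb2 (0.924) and Ank3 for Erbb3 (0.94).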

How the data were processed

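The deposited matrices hold raw UMI counts per gene and cell barcode, made by the authors with Cell Ranger (6.1.1 per the file headers) on mm10 per the submitters' processing notes, from 10x Genomics 3′ libraries. Following the study's methods, cells with under 10% mitochondrial UMIs, more than 200 genes and fewer than 4000 genes (6000 in WTUV) were kept, and the libraries were integrated by SCT with Seurat 5.3.0 (3000 features, 30 dimensions, resolution 0.8). Clusters of at least 100 cells were split again, and 162 clusters were named "-like" from 22 marker panels, 56 staying unnamed. The naming limits and the second split were set after the clusters had been seen. Scrublet (scanpy 1.11.5) marked 1.39%, 0.0191% and 0.0165% of cells, which is too few to have worked in WTUV and RPUV, so doublets were kept and leaving out the 5% of cells with the highest scores was an alternative.

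Counts were summed per class and library and given as CPM (per 1000000 UMIs of that class). The deposited files give 25795684, 64556621 and 29128981 UMIs in the kept cells of WTctrl, WTUV and RPUV. Ratios have exact conditional binomial 95% intervals, and a ratio was past 2-fold only with at least 20 UMIs over both libraries. A count of 0 was read as under 3. The summing and interval code was tested on simulated data. With 1 library per group no test was run. Alternatives were edgeR 4.0.16 TMM and DESeq2 1.42.0 size factors for scaling, other cell filters, naming and weighting. The members and gene lists were chosen with earlier results of these data known. The text names all members, up to 3 highest and 3 lowest pathway genes past 2-fold in each comparison of keratinocyte-like and macrophage-like cells, and genes with the highest r to each member. Adam10, Adam17, Nrg3 and Erbb4 were named outside this rule, after their values were seen.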

Additional observations from a re-analysis of the deposited data

Results flagged for a closer look

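Btc was singled out because the RPUV over WTctrl ratio had opposite directions in the main classes. It was 2.98 in keratinocyte-like cells and 0.367 in macrophage-like cells, on 38 and 8 RPUV UMIs and 13 WTctrl UMIs in each class. The difference between the classes was not tested.

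The 56 unnamed clusters entered no comparison, and members differed from their WTctrl level there in both directions, with intervals that do not overlap unless stated. Areg was at 24.3 CPM in WTUV and 25.9 in RPUV, against 9.36 in WTctrl. Of the WTUV Areg UMIs, 85 were in a cluster of 39 WTUV cells led by Cd3g, Trdc and Ctla2a and 50 in one led by Retnla, Ear2 and Fn1. Nrg1 was at 26.4 in WTUV and 13.4 in RPUV, against 0.187 in WTctrl. Of the WTUV Nrg1 UMIs, 139 were in a cluster of 45 WTUV cells led by Nrg1, Thbs1 and Vcan, at 572 CPM. Hbegf was at 44.6 in RPUV against 21.7 in WTctrl. Ereg was at 2.51 in RPUV, from 9 UMIs, and had 0 UMIs in WTctrl. Other values were lower than in WTctrl. Epgn was at 8.42 in WTctrl, 0.631 in WTUV and 3.62 in RPUV, the last with an interval that overlaps that of WTctrl, and 39 of its 45 WTctrl UMIs were in the cluster of 68 WTctrl cells led by Krt15, Krt5 and Krt14. In WTUV Hbegf (12.6 against 21.7), Egfr (4.56 against 15.9), Erbb2 (1.4 against 6.18) and Erbb3 (4.98 against 8.98) were also under WTctrl.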

How the results depend on the processing

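Of the values recomputed under other settings, 538 stayed within their interval or within 1.5 times their count, 80 moved and 1 reversed. No paired analysis was possible because each group has 1 library and no result comes from a test. Counts of members past 2-fold moved as follows. In keratinocyte-like cells WTUV over WTctrl (0) became 2 with a limit of 4000 genes in every library, 3 with classes from marker UMIs, 2 with each library clustered alone, and 1 with every cluster named by its best panel, with cells thinned to 2000 UMIs, with a mean over cells, and with TMM or DESeq2 scaling. RPUV over WTUV (4) became 2 with libraries clustered alone and 1 when thinned. RPUV over WTctrl (7) became 4 alone, 2 thinned and 3 with a mean over cells. Chosen after seeing the data, basal, suprabasal and hair follicle cells alone gave 1, 2 and 2 for WTUV over WTctrl. For RPUV over WTUV suprabasal and hair follicle cells gave 1 each, and for RPUV over WTctrl 4 and 3. Leaving out the 5 cells highest in each member gave 1 for WTUV over WTctrl. In macrophage-like cells RPUV over WTUV (1) became 2 with the limit of 4000 genes, each library clustered alone, best panels, without the highest Scrublet scores, without a minimum of UMIs, and with unnamed clusters closest to macrophages added (chosen after seeing the data), and 3 with marker UMIs or a mean over cells. RPUV over WTctrl (4) became 2 when thinned. Over all cells RPUV over WTUV (6) became 2 with all deposited barcodes, where the log2 ratio of Ereg for RPUV over WTctrl reversed from 2.02 to -0.58. Of the 30 member and library pairs, 19 kept the class with the highest level when libraries were clustered alone. Causes were not tested. Depth limits Ereg, Tgfa and Btc, with 13 to 63 keratinocyte-like UMIs a library, and WTUV is the deepest library.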
